A study of Mus musculus with 20 samples.

Results

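Of the 24391 genes counted in this series, 8 genes of the B lymphocyte programme were followed: Cd22 and Cd79b at the cell surface, the kinases Blk, Syk and Btk, the adaptor Bank1, and the transcription regulators Spi1 and Pou2af1. They were taken by gene symbol from the count tables. Cd22, Blk and Spi1 were picked because their counts were higher with the Notch intracellular domain in these T cells, so the Notch comparisons below describe the members and do not test them. The comparison of H2A.Z guides with their control was not used for that choice and is tested.

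The cells were E2-10HA, a mouse hybridoma of mature T cells, in 6 groups of 20 samples. H2A.Z guide cells carried lentiCRISPRv2 with guides against H2afv and H2afz, which encode the histone variant H2A.Z, under puromycin selection (n = 6, all titles with the same line number). NICD-ER cells carried a GFP-marked vector for a Flag-tagged Notch intracellular domain (NICD) fused to the estrogen receptor, were sorted, and had 24 hours of 4-hydroxytamoxifen (4-OHT, n = 2) or ethanol (n = 2). BioNICD cells carried the biotin ligase BirA and a GFP-marked NICD vector, either wild type (n = 2) or with a mutation labelled DEP that the labels do not spell out (n = 2), with histidinol selection and sorting. CRISPR control cells carried the empty lentiCRISPRv2 vector under puromycin selection (n = 6). Ethanol-treated and DEP mutant cells therefore carry an NICD construct too, and its activity there was not measured. Vector, selection and line differ between the 3 systems and cannot be told apart in levels set across them. Guides and line cannot be told apart in the comparison of H2A.Z guides with their control either. The labels do not call replicates separate cultures, so p-values measure the spread between samples, which may be technical.

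B cells read antigen through a receptor whose CD79A and CD79B chains are phosphorylated by SRC family kinases such as BLK. SYK then docks on these chains and, through adaptors, engages BTK and phospholipase C gamma 2, while CD22, a sialic acid-binding lectin of the Siglec family, recruits phosphatases that restrain the signal. SPI1 (PU.1) is an ETS family transcription factor of early B cells and myeloid cells that is normally shut off as thymocytes commit to the T lineage, and POU2AF1 (OBF-1) is a coactivator that joins the octamer-binding factors Oct-1 and Oct-2. NICD enters the nucleus and acts with the DNA-binding protein RBPJ, and Notch signalling normally directs early lymphoid cells away from the B lineage.

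Total counts ran from 13309111 to 18344298 with H2A.Z guides, from 33580638 to 39319068 with 4-OHT, from 28866834 to 30823198 with ethanol, from 23081893 to 48238324 with wild-type BioNICD, from 16371601 to 20725062 with the DEP mutant and from 10704131 to 15440584 in CRISPR controls. H2afz stood at 4.55 to 5.70 CPM (counts scaled to library size with TMM factors, in the usual CPM unit) with the guides, against 24.7 to 31.0 CPM in CRISPR controls. H2afv stood at 27.3 to 56.6 CPM with the guides, against 116 to 149 CPM in the controls. Replicates 1 and 2 of both CRISPR groups carry a treatment field that replicates 3 to 6 lack, and they are called set 1 and set 2. Replicate 1 of the guides and of the controls held fibroblast transcripts, with 6 marker genes summing to 43.9 CPM in the guide sample and 36.4 CPM in the control sample, against at most 0.284 CPM in the other 18 samples. Replicates 5 and 6 of the guides and 6 of the controls held 6.73% to 7.67% of counts in the ribosomal precursor Rn45s, against 1.84% to 4.53% in the other samples. For 6 of the 8 samples of set 2, title and description name different groups. The integrated plasmid goes with the title, and so do the H2afz levels.

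Most markers of the T lineage were present in every group and those of B cells were close to 0. The 12 T cell markers summed to at least 1500.1 CPM in each of the 20 samples, with Cd3g, the CD3 gamma chain, leading. In each group 10 or 11 of them averaged at least 1 CPM. Cd8a had at most 1 count in any group. Cd247 averaged 0.0846 CPM in CRISPR controls, 0.541 CPM with the DEP mutant and 0.780 CPM with wild-type BioNICD, against 19.1 CPM with H2A.Z guides. The 10 B cell markers summed to 0.627 and 1.29 CPM with wild-type BioNICD, against 0.611 and 0.885 CPM with the DEP mutant, and to no more than 1.02 CPM in the other samples. Ms4a1 (CD20), the early B cell factor gene Ebf1 and the surrogate light chain gene Igll1 had 0 counts in both wild-type BioNICD samples. The label of the set as B lineage genes therefore describes what the genes are known for, not the cells. In bulk samples such as these, fewer cells of a type and less RNA per cell cannot be told apart.

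**Figure D1:**
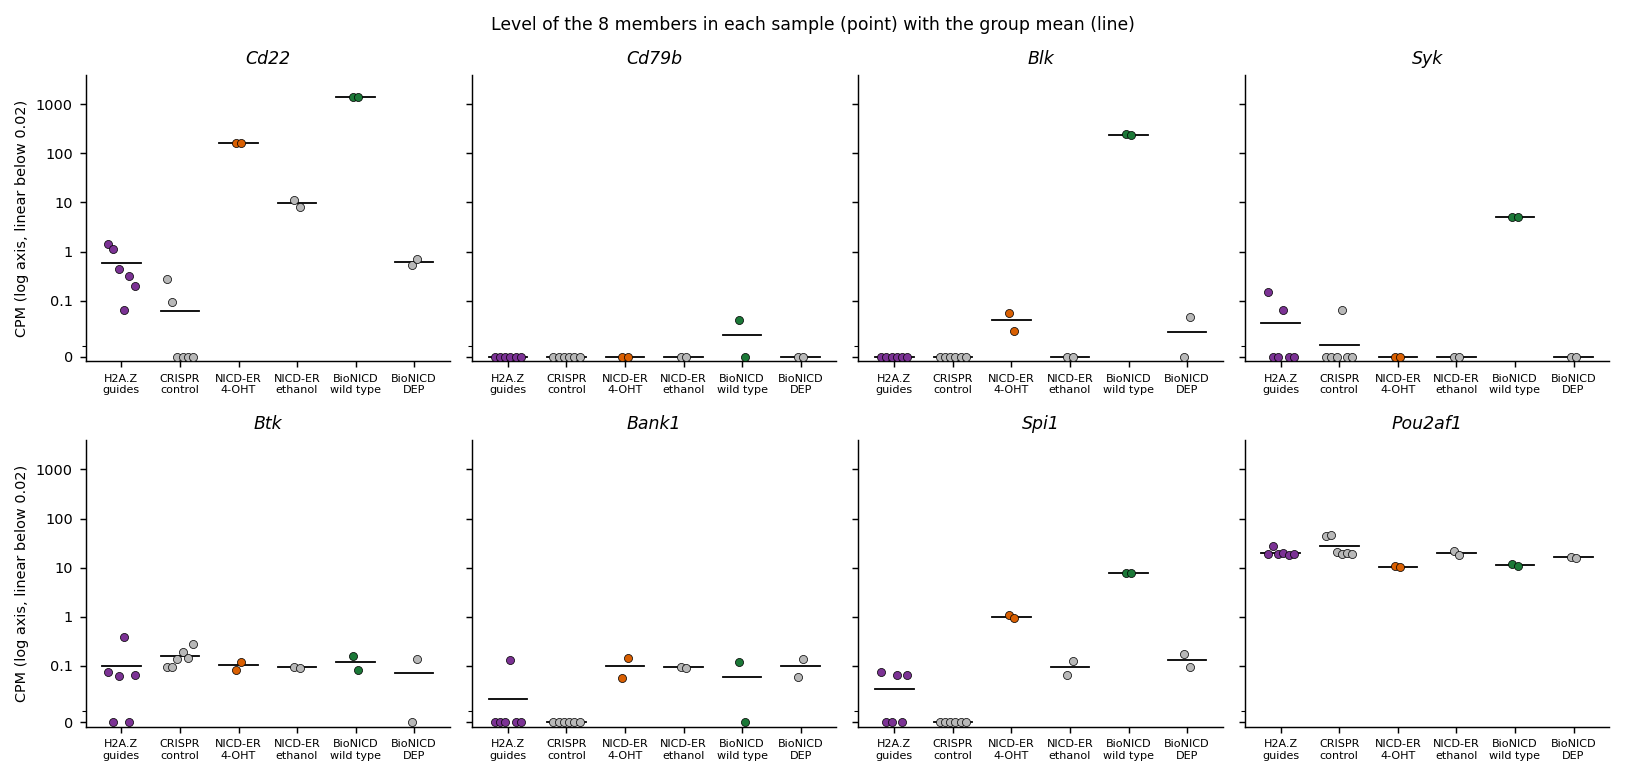
CPM of each member in each sample (points) with the group mean (line), on a log axis that is linear below 0.02 CPM. Cd22, Blk, Spi1 and Syk stand highest in wild-type BioNICD cells, Pou2af1 stays between 10.2 and 45.4 CPM in all 20 samples, and Btk, Bank1 and Cd79b stay under 0.4 CPM.

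Cd22 (mm9 chromosome 7, 31650423 to 31665361, minus strand; 17 exon entries and 4421 exonic bases counted) had the highest level of the set. It stood at 1421 and 1372 CPM in wild-type BioNICD samples (70692 and 32791 counts), against 0.531 and 0.705 CPM in DEP mutant samples (9 and 15 counts). With 4-OHT it stood at 163 and 161 CPM (5796 and 6602 counts), against 11.2 and 8.16 CPM with ethanol (346 and 263 counts). Neither pair of groups overlapped. The fitted log2 fold change was 11.09 (SE 0.110) for wild type over the DEP mutant and 4.07 (SE 0.0716), or 16.8-fold, for 4-OHT over ethanol. Per kb of counted exon, Cd22 reached 316 ± 7.89 RPKM (SD, n = 2) with wild-type BioNICD, where it took rank 143 of the 16129 genes with a count. Its rank was 2353 of 16522 such genes with 4-OHT. The order of its group means was wild-type BioNICD, 4-OHT, ethanol, DEP mutant, H2A.Z guides and CRISPR control. The ranges of neighbouring groups were separate down to the DEP mutant, and overlapped between the DEP mutant and the guides and between the guides and the CRISPR control.

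The 250 bases before the Cd22 start are shown because they hold 1 copy of TGGGAA, the core of RBPJ sites, in capitals. They come from RefSeq on GRCm38.p6, minus strand, chr7:30879029-30879278, a build other than the mm9 of the counts.

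Cd22: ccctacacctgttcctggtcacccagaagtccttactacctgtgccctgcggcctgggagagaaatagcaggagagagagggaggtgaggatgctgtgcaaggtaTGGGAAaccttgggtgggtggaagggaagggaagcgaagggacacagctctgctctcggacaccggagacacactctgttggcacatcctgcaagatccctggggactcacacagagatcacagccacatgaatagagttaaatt

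Both strands were searched in the promoter windows of the 5 members with an entry (Cd22, Syk, Btk, Bank1 and Pou2af1; Syk has 2 windows). The search used the RBPJ core above, the letters GAGGAA at the core of PU.1 sites, and the octamer ATGCAAAT that octamer-binding factors recognise. The first pair of motifs share their last 4 letters and no matches of different motifs overlapped in the windows of the members. The RBPJ core occurs in 21.6% of 32851 mouse promoter windows of the same length, the PU.1 core in 23.3% and the octamer in 1.6%. Cd22 and Btk each had 1 RBPJ core, starting 145 and 214 bases before the start, and the other windows of the members had none. A match is a string of letters and not a measured binding site.

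Cd79b, the receptor chain that carries a signalling motif (mm9 chromosome 11, 106172655 to 106175843, minus strand), was at the other extreme. It had 2 counts in 1 wild-type BioNICD sample and 0 in the other 19 samples. Its partner Cd79a had 12 counts with wild-type BioNICD and 5 with the DEP mutant. The receptor's signalling chains were thus at or near the limit of detection wherever Cd22 was high. Siglecg, a Siglec of B cells and a relative of Cd22, had 4 counts with wild-type BioNICD and 0 with the DEP mutant, and at most 1 count in any other group.

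Blk (mm9 chromosome 14, 63991674 to 64036024, minus strand; 2475 exonic bases) was present in 1 group and at or near 0 counts in the other 5. It had 12036 and 5723 counts in wild-type BioNICD samples (242 and 239 CPM), against 0 and 1 count in DEP mutant samples. The pooled level was 9221 times higher in wild type, with a 95% counting interval of 1655 to 364235. This size rests on 1 count in DEP mutant replicate 2: the fitted log2 fold change was 12.95, against 12.2 without DEP mutant replicate 1 and 15.95 without replicate 2, where only 0 counts are left and the value depends on the fit's prior count. With 4-OHT it had 2 and 1 counts, against 0 and 0 with ethanol, which is at the floor of 3 counts and gives no fold. All 12 CRISPR samples had 0 counts. So Blk was high in both samples of 1 group and at or near 0 in the other 18, although 24 hours of 4-OHT went with a high Cd22.

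Syk (mm9 chromosome 13, 52678806 to 52744161, plus strand; 5272 exonic bases), the kinase that binds the phosphorylated receptor chains, had the same on and off pattern at a lower level. It had 246 and 120 counts with wild-type BioNICD (4.94 and 5.02 CPM), against 0 and 0 with the DEP mutant, so its level was at least 63.3-fold higher, taking 3 counts over the DEP mutant group as the floor. With 4-OHT and with ethanol it had 0 counts, which allows at most 0.0392 CPM and 0.0475 CPM. With H2A.Z guides it had 3 counts and in CRISPR controls 1 count. These samples therefore set no direction for Syk outside the BioNICD pair.

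RefSeq gives 2 start regions for Syk, and 1 of them holds a GAGGAA, 9 bases before the start. It is shown for comparison with Cd22 (GRCm38.p6, plus strand, chr13:52596632-52596881, the match in capitals).

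Syk: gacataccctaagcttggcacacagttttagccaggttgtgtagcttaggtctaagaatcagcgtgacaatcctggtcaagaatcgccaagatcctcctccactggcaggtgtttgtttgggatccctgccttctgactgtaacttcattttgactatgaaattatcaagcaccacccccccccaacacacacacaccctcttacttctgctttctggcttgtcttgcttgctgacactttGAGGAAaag

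Btk (mm9 chromosome X, 131076880 to 131117679), the kinase downstream of SYK, and Bank1 (mm9 chromosome 3, 135716328 to 135989010), a scaffold that links the receptor to SRC family kinases, stayed at single counts in all 6 groups. Btk had 8 and 2 counts with wild-type BioNICD, against 0 and 3 with the DEP mutant, and 3 and 5 counts with 4-OHT, against 3 and 3 with ethanol. Its pooled ratios were 1.73 (95% counting interval 0.446 to 9.79) in the BioNICD pair and 1.10 (0.335 to 3.85) in the NICD-ER pair. Bank1 had 6 and 0 counts with wild-type BioNICD, against 1 and 3 with the DEP mutant, and 2 and 6 counts with 4-OHT, against 3 and 3 with ethanol. Its pooled ratios were 0.779 (0.185 to 3.75) and 1.10 (0.335 to 3.85). Both sets of intervals span 1, so no difference was detectable at this depth.

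Spi1 (mm9 chromosome 2, 90936954 to 90955913, plus strand, 1333 exonic bases) was low in all groups. It was higher with wild-type BioNICD and with 4-OHT than in the groups they were set against. It had 384 and 185 counts in wild-type BioNICD samples (7.72 and 7.74 CPM), against 3 and 2 counts in DEP mutant samples (0.177 and 0.0939 CPM). With 4-OHT it had 39 and 38 counts (1.10 and 0.929 CPM), against 2 and 4 counts with ethanol (0.0647 and 0.124 CPM). The groups of neither pair overlapped. The fitted log2 fold change was 5.82 (SE 0.315) for wild type over the DEP mutant and 3.36 (SE 0.436) for 4-OHT over ethanol. Per kb, Spi1 reached 5.80 ± 0.0106 RPKM with wild-type BioNICD, rank 7862 of 16129, and 0.759 ± 0.0885 RPKM with 4-OHT. Its ETS relative Spib, an activator of B cells, had 14 counts with wild-type BioNICD, against 2 with the DEP mutant, and 22 counts with 4-OHT, against 4 with ethanol.

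Pou2af1 (mm9 chromosome 9, 51021795 to 51048184, plus strand, 2566 exonic bases) was the only member with more than 10 CPM in every sample. It was lower with wild-type BioNICD and with 4-OHT than in the groups they were set against. It stood at 12.0 and 10.9 CPM with wild-type BioNICD, against 16.9 and 16.0 CPM with the DEP mutant. With 4-OHT it stood at 10.9 and 10.2 CPM, against 22.3 and 18.2 CPM with ethanol. In both pairs each wild-type or 4-OHT sample lay below both samples it was set against. The fitted log2 fold change was -0.53 (SE 0.105) for wild type over the DEP mutant and -0.94 (SE 0.0939) for 4-OHT over ethanol. The Pou2af1 window is shown as one in which none of the 3 motifs occurs (RefSeq, GRCm38.p6, plus strand, chr9:51213440-51213689). The Bank1 window and the other Syk window hold none either, and Btk holds an RBPJ core but stayed at single counts. No link of motif to level is read from these windows.

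Pou2af1: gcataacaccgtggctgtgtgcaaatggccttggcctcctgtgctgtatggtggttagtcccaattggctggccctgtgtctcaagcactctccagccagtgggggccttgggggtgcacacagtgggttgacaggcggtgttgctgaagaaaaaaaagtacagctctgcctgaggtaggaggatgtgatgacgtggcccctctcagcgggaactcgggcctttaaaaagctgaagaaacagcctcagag

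Of the 8 members, groups did not overlap for 5 in the BioNICD comparison and for 4 in the NICD-ER comparison, where Blk is counted at 2 and 1 counts against 0 and 0. Btk, Bank1 and Cd79b are among the 8 but did not pass the filter on low counts, while the shares that follow are over genes that did. Groups of 2 samples did not overlap for 80.4% of the 12499 genes tested in the BioNICD comparison and for 66.1% in the NICD-ER comparison. An adjusted p under 0.05 was reached by 65.6% in the BioNICD comparison (32.0% higher and 33.6% lower) and by 36.2% in the NICD-ER comparison (19.0% higher and 17.2% lower). Because the members were picked on these comparisons, nothing is read from those counts.

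Set beside their relatives in the T lineage, Blk came close to its counterpart in wild-type BioNICD cells, while Syk stood far below its own. Blk stood at 97.2 ± 0.725 RPKM with wild-type BioNICD, beside 121 ± 1.12 RPKM for Lck, the SRC family kinase of the T cell receptor, in the same samples. Syk stood at 0.945 ± 0.0100 RPKM, beside 66.9 ± 1.80 RPKM for Zap70, its T cell relative. Btk stood at 0.0482 ± 0.0215 RPKM (all SD, n = 2). Pou2af1 stood at 4.45 ± 0.304 RPKM in these cells, and its partners Pou2f1 (Oct-1) and Pou2f2 (Oct-2) at 3.86 ± 0.0993 and 3.91 ± 0.532 RPKM. In DEP mutant cells Pou2f2 had 0 counts, while Pou2f1 stood at 5.17 ± 0.0120 RPKM.

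**Figure D2:**
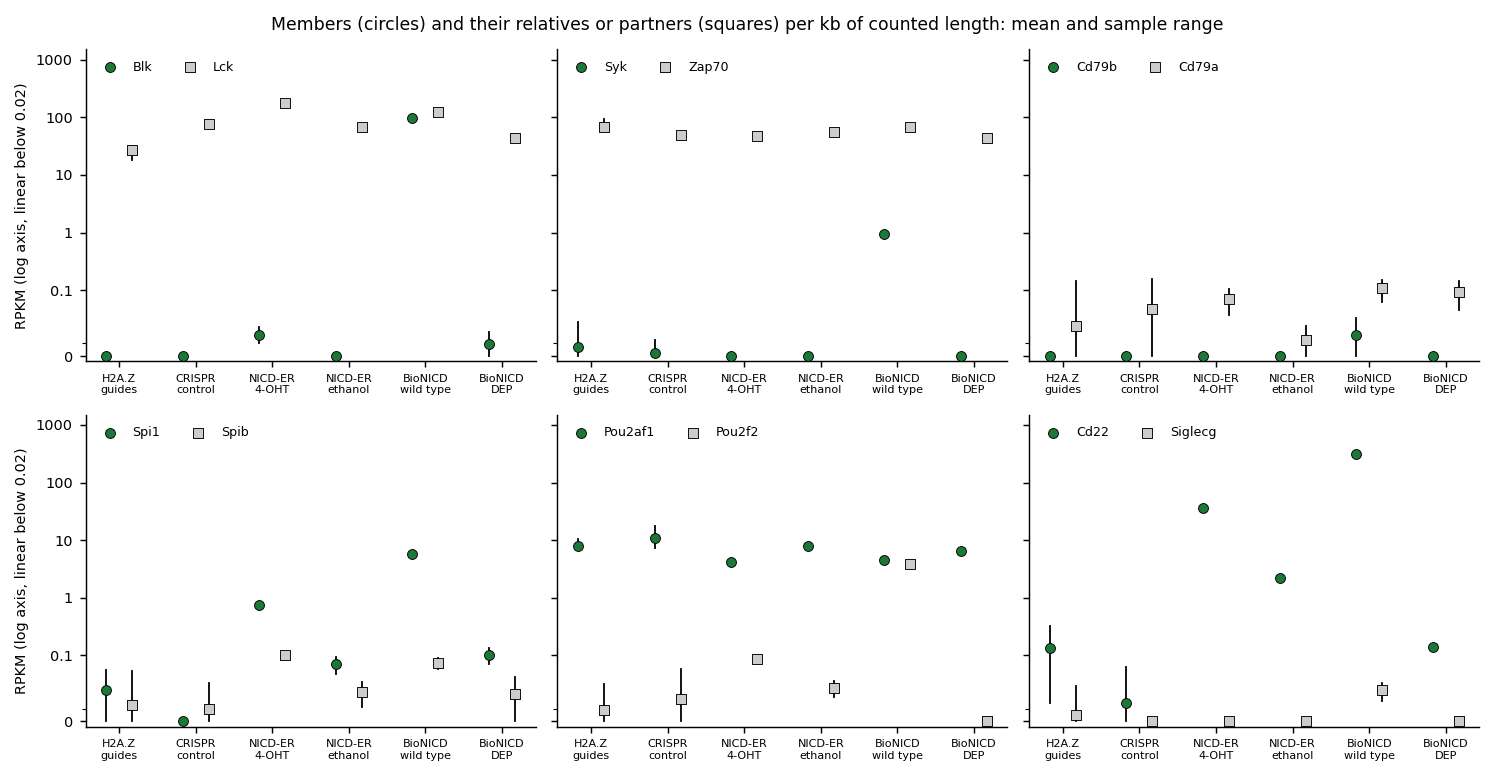
Mean RPKM (symbols) and sample range (lines) of members (green circles) and their relatives or partners (grey squares) in the 6 groups, on a log axis that is linear below 0.02 RPKM. In wild-type BioNICD cells Blk (97.2 RPKM) stands near Lck (121 RPKM), while Syk stands far below Zap70.

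With guides against H2A.Z, Cd22 was higher, at a few counts per sample, and Pou2af1 was lower, in 1 of the 2 sets. Pou2af1 was the only member above the filter on low counts. It stood at 18.2, 19.0 and 27.3 CPM (lowest, median and highest of 6 guide samples), against 18.8, 20.2 and 45.4 CPM in the 6 controls. The groups overlapped. The fitted log2 difference was -0.38 (SE 0.133, adjusted p = 0.0212 in edgeR), so 1 of the 1 members tested was called, where 64.5% of the 10662 genes tested were (31.8% higher and 32.7% lower). In set 1 it stood at 18.8 and 27.3 CPM with guides, against 44.0 and 45.4 CPM in controls, which is -0.95 on the log2 scale (SE 0.185, adjusted p = 0.00913 in edgeR). In set 2 it averaged 18.9 ± 0.579 CPM with guides and 19.5 ± 0.868 CPM in controls (SD, n = 4 each), which is -0.04 on the log2 scale (SE 0.0631, adjusted p = 0.537 in edgeR). The difference between the sets was itself past the threshold, at 0.89 on the log2 scale (SE 0.154, edgeR adjusted p = 0.00158), as it was for 15.7% of genes. The call was lost without guide replicate 2 (adjusted p = 0.0520), without control replicate 1 (0.0572) or 2 (0.0584), without both samples that held fibroblast transcripts (0.0563), without set as a covariate (0.126) and in 1 model of all 20 samples (0.0855), all in edgeR.

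Cd22 had 54 counts over the 6 guide samples, against 4 counts over the 6 controls. The guide samples of set 1 had 19 and 20 counts and those of set 2 had 7, 1, 4 and 3 counts. The controls had 3 and 1 counts in set 1 and 0 in all 4 samples of set 2. Within each set every guide sample was above every control, while across sets the lowest guide sample (0.0648 CPM) was under the highest control (0.282 CPM). The pooled ratio was 11.8, with a 95% counting interval of 4.36 to 44.9. With no filter on low counts the log2 fold change was 3.23 (SE 0.633, edgeR adjusted p = 4.21e-05), in a fit that called 42.5% of 17154 genes. It was 4.11 (edgeR adjusted p = 6.01e-05) without both samples that held fibroblast transcripts. Its level with the guides, 0.594 ± 0.545 CPM (SD, n = 6), was far below that with 4-OHT. Of the other members, Spi1 had 3 counts with guides and 0 in controls, Btk 9 and 13, Syk 3 and 1, Bank1 2 and 0, and Blk and Cd79b 0 and 0. In the same fit with no filter their adjusted p-values ran from 0.227 (Spi1) to 0.613 (Syk), with Blk and Cd79b not testable.

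**Figure D3:**
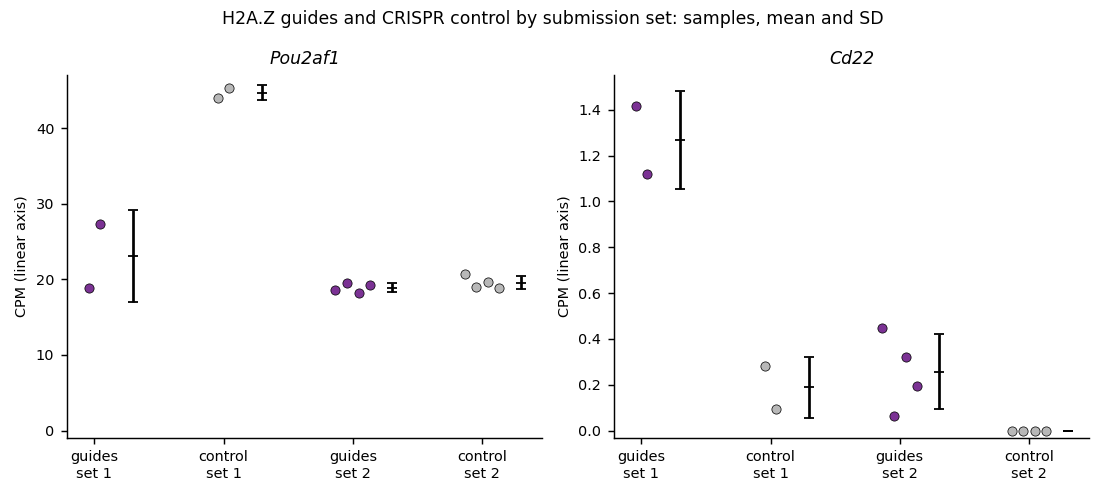
CPM of Pou2af1 and Cd22 in H2A.Z guide (purple) and CRISPR control (grey) samples of set 1 and set 2 (points), with mean and SD (bars), on linear axes from 0. Pou2af1 differs in set 1 (guides 18.8 and 27.3 CPM, controls 44.0 and 45.4 CPM), and averages 18.9 CPM with guides and 19.5 CPM in controls of set 2. Every guide sample lies above the controls of its set for Cd22.

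The pathway downstream of these members was read in other genes. To be tested in either Notch comparison a gene had to reach 0.335 CPM in at least 2 samples, and 310 of the 12499 genes did so in wild-type BioNICD samples alone. Such genes had to be higher in wild type to be tested at all. In the NICD-ER comparison 21 genes passed through 4-OHT alone and 17 through ethanol alone. In the guide comparison, at 0.668 CPM, 75 passed through guide samples alone and 100 through controls alone. Genes of these kinds are named below without a test, and list counts and medians are also given without them. Of 31 further genes of B cell receptor signalling, 22 were tested in the BioNICD comparison, where 13 rose with wild type and the other 9 did not pass, against 32.0% higher and 33.6% lower among all genes tested. Their median log2 fold change was 0.35, against -0.022 over all genes tested. Without Plcg2 and Prkcb, which passed through wild type alone, 11 of 20 rose and the median was 0.31. Plcg2, the phospholipase that BTK activates, stood at 61.8 ± 2.29 CPM in wild type and 0.0235 ± 0.0332 CPM in the DEP mutant, a pooled ratio of 2384 with a counting interval of 428 to 94196. Prkcb, a protein kinase C of this pathway, had 46 counts in wild type and 1 in the DEP mutant, a ratio of 23.9 with an interval of 4.08 to 964. Sh3bp2, an adaptor that binds SYK family kinases, rose by 3.17 on the log2 scale (SE 0.170, adjusted p = 9.57e-14).

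In the NICD-ER comparison the same list was nearly evenly divided. Of 22 genes tested, 6 rose with 4-OHT, 6 fell and 10 did not pass, against 19.0% higher and 17.2% lower among all genes tested, with a median of 0.026, against -0.00045 over all genes tested. Without Cd5, which passed through the ethanol samples alone, 6 of 21 rose, 5 fell and the median was 0.063. Cd5, a brake on antigen receptor signals, had 14 counts with 4-OHT and 30 with ethanol. Fcgr2b, the inhibitory Fc receptor of B cells, fell by 0.67 on the log2 scale (SE 0.125, adjusted p = 0.000158). Vav2, an exchange factor, fell by 0.56 (SE 0.131, adjusted p = 0.00158). Sh3bp2 rose by 0.50 (SE 0.160, adjusted p = 0.0164). With H2A.Z guides 13 of 17 rose and 2 fell, against 31.8% and 32.7% of all genes tested, with a median of 0.25, against -0.0081 over all genes tested. Without Fcgr2b, which passed through the guide samples alone, 12 of 16 rose, 2 fell and the median was 0.24. Fcgr2b stood at 287 ± 22.4 CPM with guides and 0.101 ± 0.0918 CPM in controls (SD, n = 6 each), higher by 11.33 on the log2 scale. Cd81, a tetraspanin of the B cell coreceptor, rose by 1.73 (SE 0.0919, adjusted p = 1.44e-10).

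Among 22 further transcription factors of the B lineage, 16 were tested in the BioNICD comparison, where 10 rose with wild type and 4 fell, against 32.0% and 33.6% of all genes tested, with a median of 0.76, against -0.022. Without Pou2f2, which passed through wild type alone, 9 of 15 rose and the median was 0.70. Pou2f2, the Oct-2 partner of POU2AF1, had 1022 counts in wild type and 0 in the DEP mutant, at least 177-fold higher. Ets1 stood at 69.8 ± 2.42 CPM in wild type and 0.235 ± 0.000723 CPM in the DEP mutant, higher by 8.17 on the log2 scale (SE 0.155, adjusted p = 1.34e-22). Irf4 and Irf8, interferon regulatory factors that bind DNA together with PU.1, rose by 3.99 (SE 0.129) and 3.94 (SE 0.160) on the log2 scale. Pax5, which fixes B cell identity, had 15 counts in wild type and 0 in the DEP mutant, and Ebf1 had 0 and 1. With 4-OHT 6 of 16 rose and 3 fell, against 19.0% and 17.2% of all genes, with a median of 0.083. Pou2f2 had 23 counts with 4-OHT and 6 with ethanol (log2 fold change 1.62, SE 0.609, adjusted p = 0.0415). Runx1 and Ikzf1, shared by B and T cells, rose by 0.52 and 0.47, and Prdm1 (Blimp-1) fell by 0.53. With H2A.Z guides 7 of 13 rose and 3 fell, against 31.8% and 32.7% of all genes, with a median of 0.34. Irf4 stood at 5.23 ± 2.34 CPM with guides and 1.41 ± 0.188 CPM in controls (log2 fold change 1.87, SE 0.213, adjusted p = 1.17e-06), and Bcl6, a repressor of germinal centre B cells, rose by 0.82.

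Surface and secreted B cell products were mostly under the filter. Of 27 genes on that list, 12 were tested in the BioNICD comparison, where 5 rose and 2 fell, against 32.0% and 33.6% of all genes, with a median of 0.11. Without the 2 genes that passed through wild type alone, Fcrl1 among them, 3 of 10 rose and the median was -0.31. Fcrl1, an Fc receptor-like protein of B cells, had 1099 counts in wild type and 0 in the DEP mutant, at least 190.2-fold higher. Cd40, the costimulatory receptor of B cells, rose by 3.76 (SE 0.180) and Cd74, the invariant chain of MHC class II, by 1.97 (SE 0.136). With 4-OHT 1 of 12 rose, Cd40 by 1.76 (SE 0.292, adjusted p = 4.16e-05), and 1 fell, the plasma cell proteoglycan gene Sdc1 by 0.52 (SE 0.135, adjusted p = 0.00377), against 36.2% of all genes called in that comparison, with a median of 0.27. With H2A.Z guides the 3 tested were called, where 64.5% of all genes were, with a median of -0.86. Sdc1 rose by 2.90 (SE 0.114) and Dntt, the template-free DNA polymerase of antigen receptor rearrangement, fell by 2.82 (SE 0.145).

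Genes that act with or downstream of Spi1 in myeloid cells were read from a list of 38. In the BioNICD comparison 16 of the 37 in the table were tested, 10 rose and 2 fell, against 32.0% and 33.6% of all genes, with a median of 1.1. Without Spic, Cybb and Itgax, which passed through wild type alone, 7 of 13 rose, 2 fell and the median was 0.78. Itgam, the CD11b integrin chain, stood at 62.2 ± 1.15 CPM in wild type and 0.135 ± 0.0587 CPM in the DEP mutant (log2 fold change 8.83, SE 0.181, adjusted p = 6.41e-22). Spic, an ETS relative of Spi1, had 245 counts in wild type and 1 in the DEP mutant, a ratio of 127 with an interval of 22.6 to 5045. Cybb, a subunit of the phagocyte oxidase, had 121 and 1 counts, a ratio of 62.8 (11.1 to 2502), and Itgax, the CD11c integrin chain, had 107 and 2 counts, a ratio of 27.8 (7.50 to 232). Other myeloid markers stayed at few counts: Csf1r, the macrophage growth factor receptor, had 8 counts in wild type and 6 in the DEP mutant, Lyz2 12 and 13, Mpo 10 and 5, and Elane 0 in wild type. The 11 myeloid markers in the table, of 12 listed, summed to 107 and 110.2 CPM in wild type, against 24.8 and 28.7 CPM in the DEP mutant, with Itgam, Cd68 and Itgax leading. The part of myeloid cells in these levels was not tested.

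With 4-OHT 3 of 16 genes of the Spi1 list rose and 2 fell, against 19.0% and 17.2% of all genes, with a median of 0.31. Without Kit, which passed through the 4-OHT samples alone, 3 of 15 rose, 2 fell and the median was 0.25. Lyl1, a helix-loop-helix factor of blood progenitors, rose by 1.35 (SE 0.335, adjusted p = 0.00268) and Cebpb by 0.36 (SE 0.0486), while Csf2rb fell by 0.79 (SE 0.167). Lyz2, the other gene counted as falling, had 16 counts with 4-OHT and 36 with ethanol. Lyz2 needed the ethanol samples to pass the filter, so its level is given without a test. The myeloid markers summed to 17.14 and 18.04 CPM with 4-OHT, against 15.7 and 18.9 CPM with ethanol. With H2A.Z guides 3 of 6 rose and 1 fell, against 31.8% and 32.7% of all genes, with a median of 0.30. Without Fcgr3, which passed through the guide samples alone, 2 of 5 rose, 1 fell and the median was 0.14. Fcgr3, an activating Fc receptor, had 102 counts with guides and 22 in controls, and Cd68, a lysosomal glycoprotein, fell by 1.65 (SE 0.1005).

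**Figure D4:**
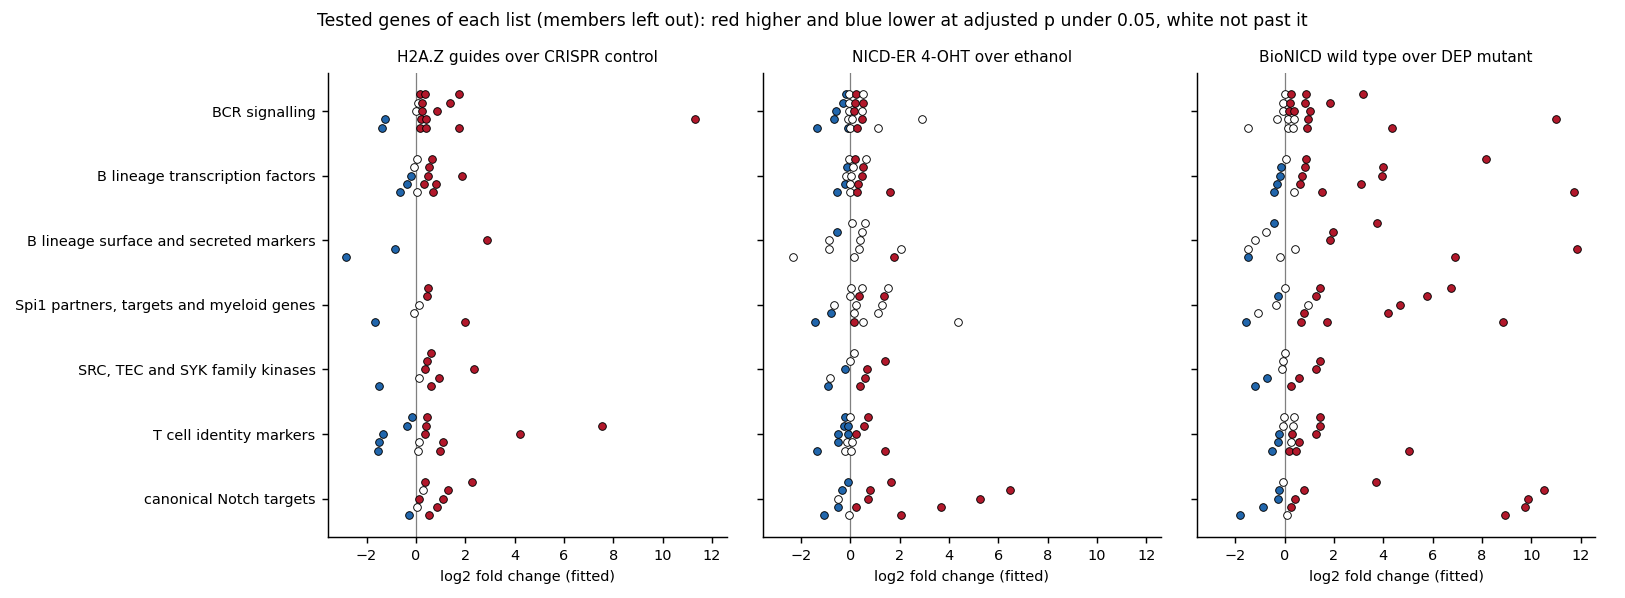
Fitted log2 fold change (horizontal axis) of each tested gene on 7 lists in the 3 comparisons, members left out. Red points were higher and blue points lower at an edgeR adjusted p under 0.05, and white points did not pass. The lists of B cell receptor signalling, B lineage factors, B lineage surface genes and Spi1-linked genes reach log2 values of 8 and more to the right in the BioNICD comparison. Among these points, Plcg2 (10.99), Pou2f2 (11.74) and Fcrl1 (11.86) passed the filter through wild type alone. Points of such genes are coloured too, and their colour is not read as a test.

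Among 13 other kinases of the SRC, TEC and SYK families, 4 of 9 tested rose and 2 fell with wild-type BioNICD, against 32.0% and 33.6% of all genes, with a median of 0.0053. With 4-OHT 4 of 9 rose and 2 fell, against 19.0% and 17.2% of all genes, with a median of 0.14. Lck rose by 1.44 (SE 0.0364) with wild-type BioNICD and by 1.41 (SE 0.0340) with 4-OHT. Fyn, its partner at the T cell receptor, rose by 1.27 (SE 0.0360) and 0.59 (SE 0.0347). Tec fell by 1.22 (SE 0.120) with wild-type BioNICD and rose by 0.68 (SE 0.0729) with 4-OHT. With H2A.Z guides 6 of 8 rose and 1 fell, against 31.8% and 32.7% of all genes, with a median of 0.52: Tec rose by 2.35 (SE 0.106) and Lck fell by 1.51 (SE 0.0740).

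T cell identity genes, for comparison, rose in 8 and fell in 3 of 16 tested with wild-type BioNICD, rose in 4 and fell in 7 of 16 with 4-OHT, and rose in 7 and fell in 5 of 14 with H2A.Z guides, to be read against the same shares of all genes. Known Notch targets rose in 8 and fell in 4 of 14 in both Notch comparisons, and rose in 7 and fell in 1 of 10 with the guides. Their medians were 0.33, -0.11 and 0.24 for T cell identity and 0.35, 0.46 and 0.44 for Notch targets, in the same order of comparisons. Without 1 T cell identity gene that passed through ethanol alone, 4 of 15 rose and 6 fell with 4-OHT (median -0.11). Without Cd247, which passed through the guide samples alone, 6 of 13 rose and 5 fell with the guides (median 0.12). Of the 9 other Siglec genes only Mag passed the filter, and only through the wild-type BioNICD samples, so its level is given without a test. It had 147 counts in wild-type BioNICD cells and 1 in the DEP mutant, a ratio of 76.3 with an interval of 13.5 to 3035.

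Mag is also the neighbour of Cd22 on mm9, 18.8 kb away, and other neighbours of the members were read for that reason. No gene of the table overlapped a member. Ffar1 is a fatty acid receptor gene 3.93 kb from Cd22 on the same strand. It had 426 counts with wild-type BioNICD and 0 with the DEP mutant, at least 73.7-fold higher. With 4-OHT it had 28 counts, against 0 with ethanol, at least 7.70-fold higher. Ffar1 passed the filter only through wild-type and 4-OHT samples, where it was high, so its levels are given without a test. Fam167a, 19.2 kb from Blk, had 39 counts with wild-type BioNICD and 0 with the DEP mutant, at least 6.75-fold higher. It passed the filter only through the wild-type samples, so its level is given without a test. Slc39a13, a zinc transporter gene 26.5 kb from Spi1, rose by 3.32 (SE 0.0905) with wild-type BioNICD and by 1.47 (SE 0.08004) with 4-OHT, and fell by 0.68 (SE 0.122) with H2A.Z guides. Mybpc3, only 2.39 kb from Spi1 on the other side, had 16 counts with wild-type BioNICD and 13 with the DEP mutant and did not pass (adjusted p = 0.364). Scn4a, 4.06 kb from Cd79b, had 65 counts with 4-OHT and 6 with ethanol, while Cd79b itself had 0 in both. The ratio for Scn4a was 8.94, with an interval of 3.89 to 25.2. Scn4a needed the 4-OHT samples to pass the filter, so its level is given without a test.

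The genes whose levels followed those of a member most closely over the 20 samples were named by Pearson correlation of log2(CPM + 0.5) among 11987 genes. The 20 samples fall into groups, and wild-type BioNICD is the highest for all 3 members, so these values describe the likeness of group levels. For Spi1 they were Serpina5, a secreted serpin (r = 0.9914), Ston2, an endocytic adaptor (r = 0.9913), and Abr, a regulator of small GTPases (r = 0.991). Serpina5 averaged 7.45 CPM with wild-type BioNICD, 0.0235 with the DEP mutant, 1.08 with 4-OHT and 0.204 with ethanol. For Cd22 they were Wipf1, Furin and Serpinb6b (r = 0.9854, 0.983 and 0.9829). Serpinb6b averaged 318 CPM with wild-type BioNICD, 0.5002 with the DEP mutant, 46.0 with 4-OHT and 2.18 with ethanol. For Blk, Gm4951, Dcdc2c and Vwa5b1 had r = 0.9999, with 14.6, 26.4 and 20.2 CPM in wild-type BioNICD cells and under 0.04 CPM on average in every other group.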

How the data were processed

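Libraries were stranded and made from total RNA without ribosomal RNA, per the labels' protocols. The authors summed exonic reads per gene with featureCounts 1.5.0 on the UCSC mm9 annotation and set no strand option, per the file headers. The deposited values are raw read counts of 24391 genes. Antisense reads and reads shared by similar copies therefore cannot be told apart. The submitters' processing notes also name FastQC, Trimmomatic, STAR and DESeq2. Their versions were not given in the sources used here.

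From these counts, CPM (scaled with TMM over 20 samples) and RPKM (CPM per kb of counted exon) were computed. Genes were tested in edgeR 4.0.16 (R 4.3.3) by quasi-likelihood F after TMM scaling and the filterByExpr filter. P-values were adjusted by Benjamini-Hochberg across every gene in the fit, and 0.05 was the limit for a call. The 12 CRISPR samples formed 1 model, with submission set as a covariate. The 8 NICD samples formed another, with 1 coefficient for each group. The SE is the absolute log2 fold change divided by the square root of F, and can be too small at few counts. DESeq2 1.42.0, other scaling, no filter and left-out samples were tried as alternatives, and the scripts were tested on simulated data. Counting intervals (95%, exact) and floors (3 counts over a group) cover counting error only, since reads are not independent molecules.

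The members and gene lists were chosen with earlier results of these data known. Up to 4 genes per list and comparison are named: those called, with groups that do not overlap, by largest change. A few genes that fit this rule are not reported here. Counts of other genes on a list, relatives, neighbours, markers and the likeness genes follow their own listed rules, while Pax5, Ebf1 and the marker genes given as counts were picked from the marker lists. Promoter sequences come from RefSeq (GRCm38.p6). No expression value was placed on that build.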

Additional observations from a re-analysis of the deposited data

Results flagged for a closer look

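In 8 cases the highest or lowest sample of a group of 6 stood far from the others, a flag that chance raises in about 1 of 20 groups. For members these were Cd22 in CRISPR control replicate 1 (0.282 CPM, 3 counts), Btk in guide replicate 4 (0.389 CPM, 6 counts), Syk in control replicate 4 (0.0657 CPM, 1 count), Bank1 in guide replicate 4 (0.13 CPM, 2 counts) and Pou2af1 in guide replicate 2 (27.3 CPM). Among the listed genes these were Fcgr2b in control replicate 3 (0.275 CPM) and Sdc1 in guide replicate 1 (28.8 CPM, the highest) and in control replicate 6 (2.04 CPM, the lowest). Apart from Pou2af1 and Sdc1, these values are a few counts, where the rate of 1 in 20 need not hold. Guide replicate 1 and control replicate 1 are the samples that held fibroblast transcripts, whose part in the Sdc1 and Cd22 values was not tested.

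The log2 fold change of H2A.Z guides over CRISPR control differed between the 2 submission sets for Pou2af1 and for 3 of the 10 other list genes named in that comparison. The same test called 15.7% of all 10662 genes, and the 10 were named for their large changes, so nothing is read from that count. The log2 fold change in set 2 minus that in set 1 was 0.89 for Pou2af1 (adjusted p = 0.00158), 0.54 for Cd81 (0.0105), 1.58 for Irf4 (0.00731) and 0.54 for Lck (0.000239), by the interaction test of edgeR.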

How the results depend on the processing

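With H2A.Z guides, 1 member (Pou2af1) was called. No filter gave 2 members and set 1 alone gave 2 (Cd22 and Pou2af1 in both). The number was 0 with a replicate block (Pou2af1 adjusted p = 0.0550), without the set covariate (0.126), in set 2 alone (0.537) and without both samples with fibroblast transcripts, an alternative chosen after seeing the data (0.0563). Leaving out each replicate gave 0 to 1, and 1 model of all 20 samples called Cd22 in place of Pou2af1 (Pou2af1 adjusted p = 0.0855). Cd22 with no filter kept its direction and its call in all 22 combined alternatives, with 3.02 to 4.19 over left-out samples. The set difference of Pou2af1 held in all 17 alternatives run.

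Genes changed with the guides numbered 2948 in set 1 alone, against 6874, and 6582 to 7397 over left-out replicates. In 1 model of all 20 samples, 880 genes changed with 4-OHT and 4670 with wild-type BioNICD, against 4521 and 8194, and left-out replicates gave 3107 to 4251 and 7236 to 7807. With the replicate block these numbers were 6412, 5012 and 8406. Same-numbered samples did not deviate together in every pair (r = -0.021 to 0.24 in the CRISPR groups, 0.12 in NICD-ER, -0.012 in BioNICD), so the numbers were not taken as pairs. With no filter, 5 surface genes and 8 Spi1-list genes changed with the guides, against 3 and 4. No fold change given here for a member turned its direction under the alternatives run. The balance of all genes called did turn with scaling. Upper quartile factors gave 1970 higher and 2586 lower with 4-OHT (2376 and 2145 with TMM). RLE size factors gave 4131 and 4002 with wild-type BioNICD (3999 and 4195 with TMM), and 3469 and 3410 with the guides (3390 and 3484 with TMM). The cause of these moves was not tested. At the depth of these samples 1 count is 0.0201 to 0.0947 CPM, which limits Btk, Bank1, Cd79b and, outside BioNICD, Blk and Syk.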
